A study of Homo sapiens with 2 samples.

Results

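The proteasome genes were followed in MKN74 and MKN45 cells in which SET7/9, a lysine methyltransferase, had been knocked down. The members were all non-control probes on both arrays whose gene name starts with PSMA to PSMG and a number, which gave 70 probes of 49 gene symbols, out of 34127 probes of 25940 gene names. MKN74 and MKN45 are established human gastric cancer cell lines, and each was transfected by electroporation with 50 nM SET7/9 siRNA or 50 nM negative control siRNA and harvested after 48 hrs. Each line was hybridised to 1 two-colour Agilent array, SET7/9 siRNA RNA in Cy5 and negative control RNA in Cy3, with no dye swap and no replicate array, so that the number of arrays limits the precision of every value. The 4 RNA samples were therefore MKN74 with control siRNA, MKN74 with SET7/9 siRNA, MKN45 with control siRNA and MKN45 with SET7/9 siRNA. The sources used here do not say which of the SET7/9 siRNAs was hybridised.

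The proteasome degrades proteins that carry ubiquitin. Its 20S core is a barrel of outer alpha and inner beta rings, in which PSMB5, PSMB6 and PSMB7 are the catalytic beta subunits, and the 19S cap of ATPases and non-ATPases recognises, unfolds and feeds in the substrate. In immune cells, and in other cells exposed to interferon gamma, the catalytic subunits are replaced by PSMB8, PSMB9 and PSMB10, which form the immunoproteasome. Interferon gamma also raises PSME1 and PSME2, an activator ring that caps the core in place of 19S. These changes favour the peptides that TAP1 and its partner carry to MHC class I molecules.

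By role the members were 7 genes of the 20S alpha ring, 7 of the constitutive beta ring, 6 19S ATPases, 11 19S non-ATPases, 5 of the immunoproteasome group (PSMB8, PSMB9, PSMB10, PSME1 and PSME2), 3 other activators and an inhibitor, 7 assembly chaperones, and PSMA8 and PSMB11, the testis and thymus forms. The first 4 groups, 31 genes, are called constitutive below. PSMC3IP matched the name pattern but is a recombination factor of meiosis and no subunit. Probes with a signal well above background in 1 channel or both were kept, which held for 61 of 70 probes in MKN74 and 63 in MKN45. The kept probes belonged to 46 genes in MKN74 and 47 in MKN45, and a gene with several kept probes was given the value of its brightest one (highest mean signal over the 4 RNA samples on the log2 scale). PSMA8 and PSMB11 were not well above background in either line, and PSMB8 was not in MKN74.

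The probes of PSMB5 to PSMB9 and of PSME1 are shown, and those of PSMB10 and PSME2 are given by position, because the comparison of the immunoproteasome with its constitutive counterparts rests on 1 probe a gene. Each is 60 bases long and is written 5′ to 3′ in the sense of the transcript, with no part in capitals, and each has at least 1 reading frame without a stop codon. Positions are on GRCh37. PSMB5 lies at chr14:23495485-23495544 (minus strand), PSMB6 at chr17:4701404-4701589 (plus), PSMB7 at chr9:127115891-127115950 (minus), PSMB8 at chr6:32810023-32810490 (minus), PSMB9 at chr6:32823918-32823977 (plus) and PSME1 at chr14:24606378-24606552 (plus). The probes of PSMB6, PSMB8 and PSME1 span 186, 468 and 175 bases of the genome, more than their own length, and so cross an intron. The PSMB10 probe lies at chr16:67968412-67968471 and the PSME2 probe at chr14:24612577-24612636. Between any of the 70 probes and a probe of another member the longest shared run was 13 bases.
PSMB5: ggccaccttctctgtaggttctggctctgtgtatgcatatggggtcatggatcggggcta
PSMB6: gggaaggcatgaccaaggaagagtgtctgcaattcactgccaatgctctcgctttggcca
PSMB7: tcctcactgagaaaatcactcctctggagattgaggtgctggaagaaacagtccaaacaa
PSMB8: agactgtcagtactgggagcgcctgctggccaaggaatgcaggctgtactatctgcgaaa
PSMB9: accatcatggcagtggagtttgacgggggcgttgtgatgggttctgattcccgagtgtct
PSME1: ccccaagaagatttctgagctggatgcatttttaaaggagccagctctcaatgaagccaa

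SETD7, the gene of SET7/9, had a log2 ratio of -2.03 in MKN74 and -1.95 in MKN45 at its brighter probe, each with an error of 0.28 from the scanner software. After normexp background correction and loess the same probe gave -1.36 and -0.99. Its dimmer probe gave 0.24 in MKN74 and -0.23 in MKN45, with errors of 0.22 and 0.21. GAPDH was at -0.08 and -0.00. All 5 epithelial markers (EPCAM, CDH1, KRT8, KRT18 and KRT19) were well above background in both control samples, their brightest signals, here not scaled between the arrays, summing to 291199 in MKN74 and 325246 in MKN45. Of 5 blood cell markers, 2 had a probe above background in control MKN74 and 3 in control MKN45, where the sums were 704 and 987. Nearly all of either sum was CD79A, at 643 and 896. PTPRC, which marks all white blood cells, was not well above background in the MKN74 control and was at 28.3 in the MKN45 control. Blood cells carry the immunoproteasome, and the part of these markers in the values below was not tested. In bulk RNA, fewer cells with a transcript and less of it per cell cannot be told apart.

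No proteasome gene with a kept probe was changed by 1.5-fold at its brightest probe after SET7/9 knockdown in either line. Of 46 genes in MKN74, 0 passed that cutoff downward and 0 upward, beside 1.73% and 3.82% of all 15989 kept genes. Of 47 genes in MKN45, 0 were lower and 0 higher, beside 1.91% and 4.67% of 17544. At a smaller cutoff, 0.32 on the log2 scale, the members were again 0 and 0 in each line. The share of all genes past it in MKN74 was 6.41% downward and 9.37% upward, and in MKN45 5.61% downward and 10.6% upward. Genes as bright as the proteasome moved less than the rest: of the 3198 genes that made up the brightest 20% by control signal in MKN74, 70 were lower and 52 higher by that smaller cutoff, and of 3509 in MKN45, 44 and 64. By 1.5-fold only 8 of the 3198 were lower and 1 higher in MKN74, and 3 of the 3509 were lower and 8 higher in MKN45. In each line 29 of the 31 constitutive genes were among the brightest 20%. The log2 ratios of the members lay between -0.22 and 0.27 in MKN74, with an SD over genes of 0.11. In MKN45 they lay between -0.25 and 0.29, with an SD of 0.13. The scanner software gave each brightest probe an error of 0.20 to 0.21, and 43 of 46 and 42 of 47 ratios were smaller than their own error. That error describes a spot, and variation between cultures was not measured.

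**Figure D1:**
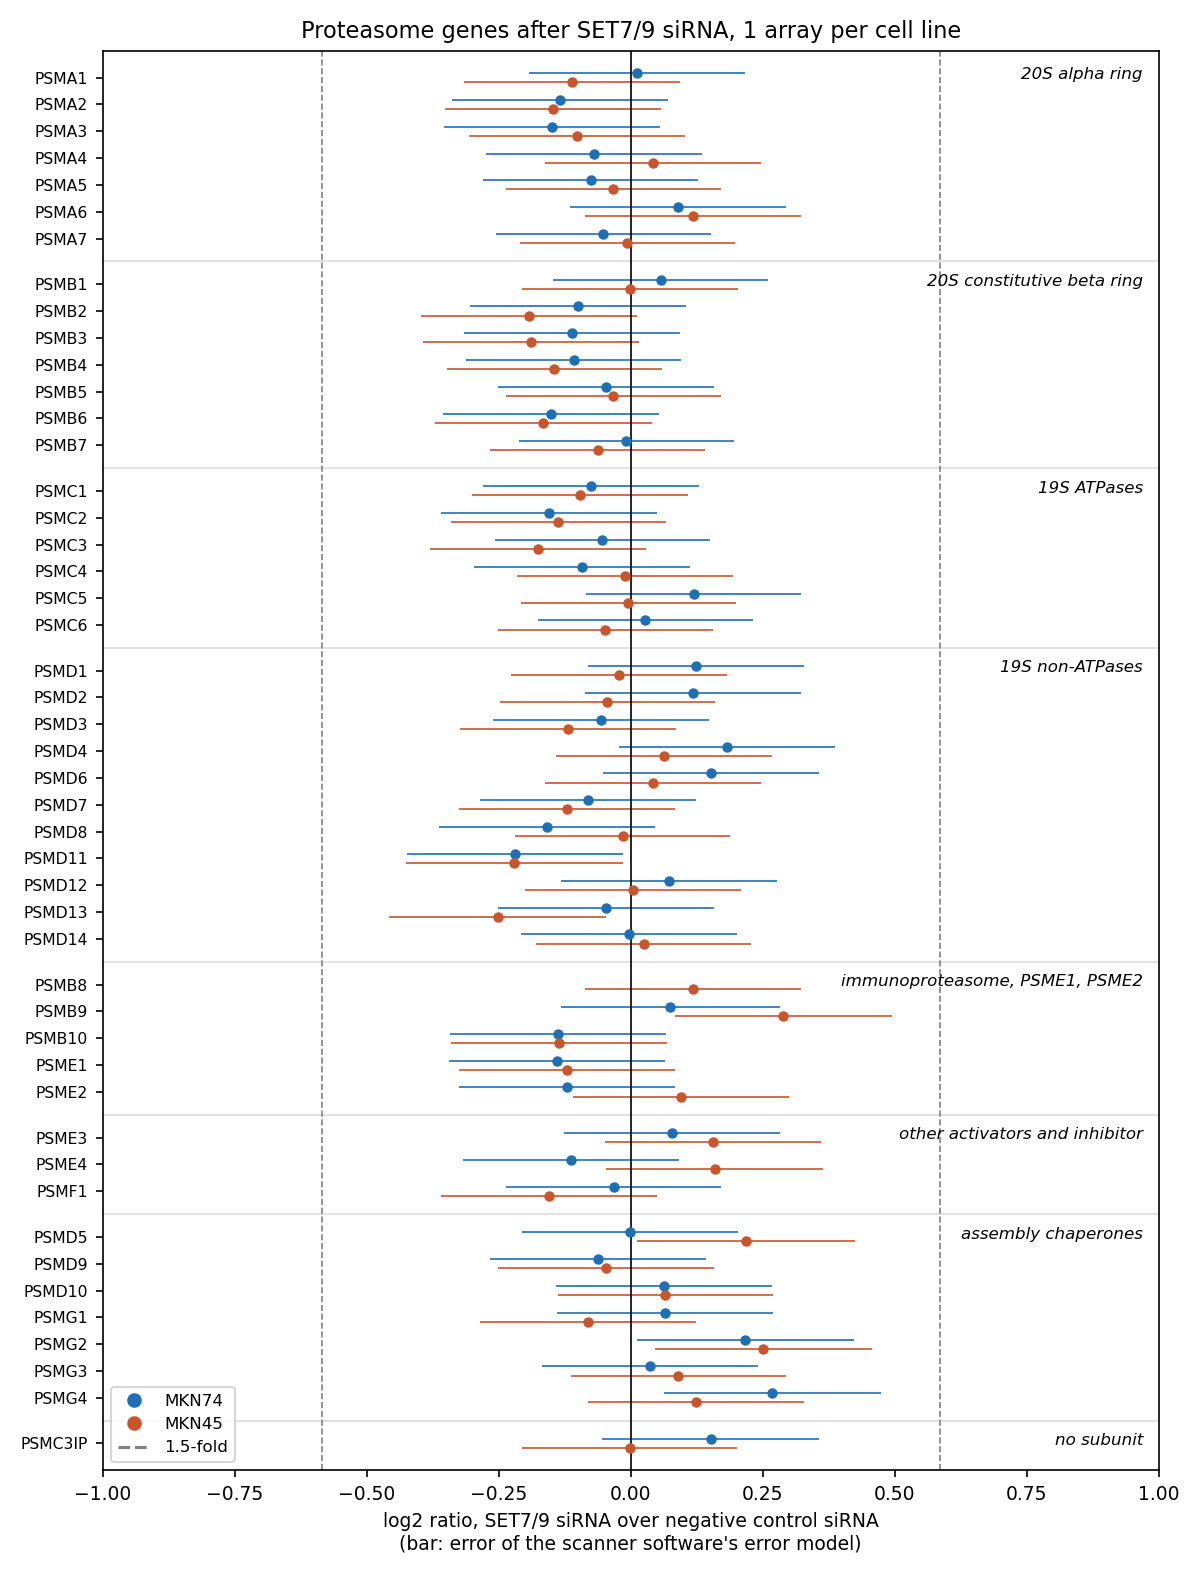
Log2 ratio of SET7/9 siRNA over negative control siRNA for each proteasome gene, grouped by role, at its brightest kept probe in MKN74 (blue) and MKN45 (orange). Bars are the error of the scanner software, dashed lines mark 1.5-fold, and all 46 points of MKN74 and 47 of MKN45 lie between the dashed lines.

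Most constitutive genes lay slightly below 0. In MKN74 21 of 31 did, with a median of -0.05, and in MKN45 25 of 31 with a median of -0.05, while the median of all genes was 0.01 in both. With each array centred on its median in place of the intensity-dependent dye normalization, 7 of 31 were below 0 in MKN74 (median 0.07) and 19 of 31 in MKN45 (median -0.03), so the sign in MKN74 turned with the dye normalization. The brightest 20% of genes had medians of -0.01 and -0.00 and were below 0 in 52.4% and 51.1% of cases.

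The 20S alpha ring had a median of -0.07 in MKN74 and -0.03 in MKN45, with 5 of 7 genes below 0 in each. PSMA6, an alpha ring subunit, was the highest of them at 0.09 and 0.12. In the constitutive beta ring 6 of 7 genes were below 0 in MKN74 and 7 of 7 in MKN45, with medians of -0.10 and -0.14. PSMB3, a beta subunit without catalytic activity, was at -0.11 and -0.19. In both lines the values of all 7 beta genes were smaller than their error.

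Among the 19S ATPases, the ring that unfolds the substrate, 4 of 6 genes were below 0 in MKN74 and 6 of 6 in MKN45, with medians of -0.06 and -0.07. The 11 non-ATPases had medians of -0.00 and -0.02. They held both the lowest and the highest constitutive gene by the mean of the lines. PSMD11, which helps to hold the lid and base of the cap together, was lowest. Its signals, scaled between arrays, were 3479 with control and 2989 with SET7/9 siRNA in MKN74, and 3547 and 3045 in MKN45, which gave log2 ratios of -0.22 in both. PSMD4, a ubiquitin receptor of the cap, was highest, at 9651 and 10955 in MKN74 and 10945 and 11438 in MKN45, with log2 ratios of 0.18 and 0.06. PSMD6, a lid subunit, was at 0.15 and 0.04 and PSMD7, another, at -0.08 and -0.12. Both were printed on 10 spots, whose SD was 0.05 and 0.03 for PSMD6 and 0.04 and 0.04 for PSMD7. PSMD13, also of the lid, was at -0.05 in MKN74 and -0.25 in MKN45.

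The constitutive catalytic subunits changed little. PSMB5, the chymotrypsin-like site, had signals of 18710 with control and 18115 with SET7/9 siRNA in MKN74, and of 17217 and 16830 in MKN45. Its log2 ratios were -0.05 and -0.03. PSMB6, the caspase-like site, had 31237 with control and 28146 with SET7/9 siRNA in MKN74, and 17060 and 15216 in MKN45, with ratios of -0.15 and -0.17. PSMB7, the trypsin-like site, was at 19874 and 19762 in MKN74 and at 8536 and 8173 in MKN45, with ratios of -0.01 and -0.06. In each line the difference between the 2 siRNAs was smaller than the scanner error, and for PSMB6 and PSMB7 smaller than the difference between the lines.

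The immunoproteasome counterparts also stayed below the smaller cutoff. PSMB8, the counterpart of PSMB5, had a signal of 429 with control and 466 with SET7/9 siRNA in MKN45, a log2 ratio of 0.12 (error 0.20). In MKN74 it was not well above background with either siRNA (3.27 and 2.13), so no ratio was taken. PSMB9, the counterpart of PSMB6, was at 162 and 170 in MKN74 and at 364 and 445 in MKN45, with log2 ratios of 0.07 and 0.29 (error 0.21 in both). Its ratio in MKN45 was the highest of the 47 genes there and the only 1 of this group to exceed its error. PSMB10, the counterpart of PSMB7, was at 8161 and 7421 in MKN74 and at 7563 and 6883 in MKN45, a log2 ratio of -0.14 in each. The activator subunit PSME1 was at 502 and 456 in MKN74 and at 619 and 569 in MKN45, with ratios of -0.14 and -0.12. Its partner PSME2 was at 34246 and 31499 in MKN74 and at 37826 and 40405 in MKN45, with ratios of -0.12 and 0.10. No gene of the group was lower in one line and higher in the other by more than its error.

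**Figure D2:**
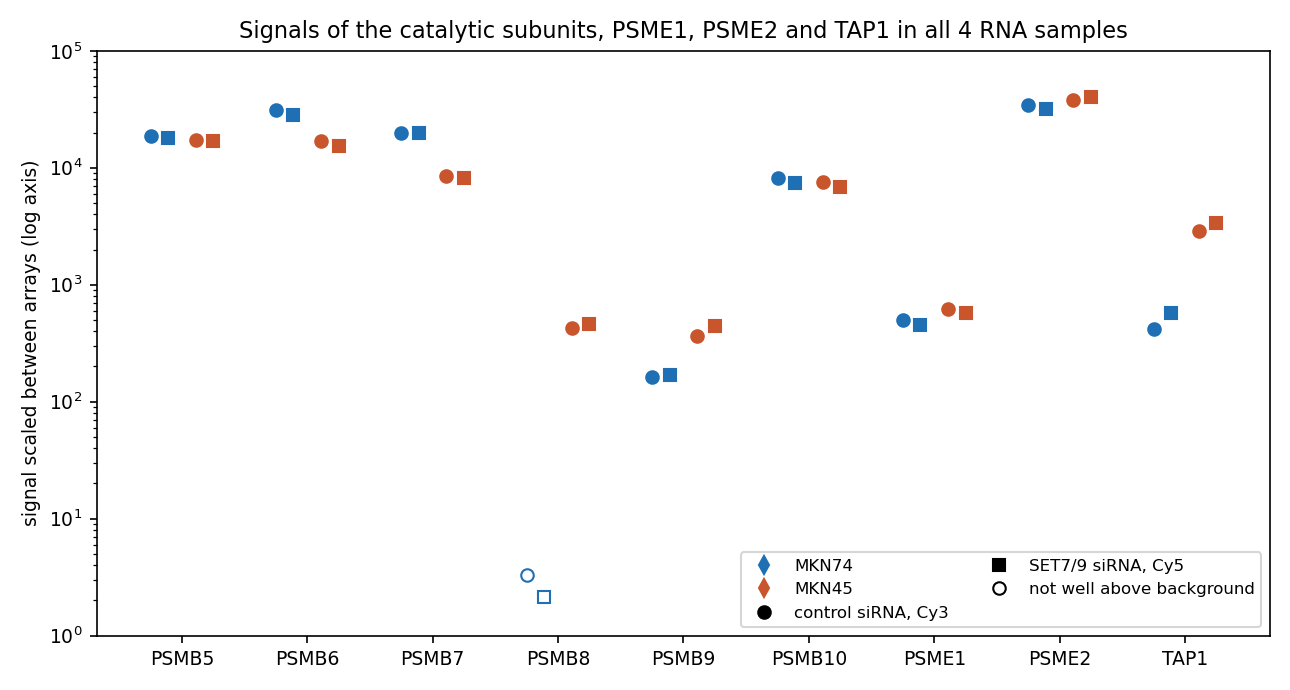
Signals of the catalytic subunits, PSME1, PSME2 and TAP1 in the 4 RNA samples, scaled between arrays, on a log axis (circles: control siRNA in Cy3, squares: SET7/9 siRNA in Cy5; blue: MKN74, orange: MKN45; open: not well above background). The 2 siRNAs lie side by side for every gene, whereas PSMB8, PSMB9 and TAP1 are higher in MKN45 than in MKN74; heights of different genes come from different probes and cannot be compared.

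Set against the constitutive genes, the immunoproteasome group showed no common direction over the lines. In MKN74 its median log2 ratio over 4 genes was -0.13, a difference of -0.08 from the constitutive median, and 3 of 4 genes were below 0. In MKN45 the median over 5 genes was 0.10, 0.14 higher than the constitutive median, and 2 of 5 were below 0. Without PSMB8, which has a value in MKN45 only, the MKN45 median was -0.01 and lay 0.04 above the constitutive one. With 1 array a line no test of these differences was possible, and genes of 1 array are not replicates.

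PSME3, a nuclear relative of PSME1, was at 0.08 in MKN74 and 0.16 in MKN45, with signals of 2743 and 2895 in MKN74 and of 2368 and 2639 in MKN45. PSME4, a large activator of the core, was at -0.11 and 0.16, and PSMF1, which inhibits the core in vitro, at -0.03 and -0.15. None of the 3 exceeded its error.

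The assembly chaperones lay above 0 in 5 of 7 genes in each line, with medians of 0.06 and 0.09. PSMG1 and PSMG2 pair to build the alpha ring. PSMG2 was at 597 with control and 694 with SET7/9 siRNA in MKN74 and at 1016 and 1210 in MKN45, a log2 ratio of 0.22 and 0.25. It was above its error in both lines, while PSMG1 was at 0.07 and -0.08. PSMG3 and PSMG4 form a second pair. PSMG4 was at 3189 and 3840 in MKN74 and at 2881 and 3138 in MKN45, with ratios of 0.27 and 0.12, and PSMG3 was at 0.04 and 0.09. Of the chaperones of the 19S base, PSMD5 was at -0.00 and 0.22, PSMD9 at -0.06 and -0.05 and PSMD10 at 0.06 and 0.07. PSMC3IP, which is no subunit, was at 0.15 and -0.00.

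Over the 46 genes kept on both arrays the 2 lines gave ratios that ran together, at r = 0.58 (Pearson) and rho = 0.59 (Spearman), beside 0.40 and 0.40 over all 15205 such genes. Of the 46, 23 were below 0 and 10 above 0 in both, and 13 had opposite signs. The arrays shared the slide, the probes and the dye orientation, so a part of a ratio that belongs to the dye or the probe is in both values and was not separated. With both arrays taken as replicates in limma, 0 of 61 member probes and 0 of 19595 probes in all (0%) had an adjusted p under 0.05. At an unadjusted p under 0.05 there were 3 member probes, beside 13.1% of all probes. They belonged to PSMG2, with a mean log2 ratio of 0.23 (SE 0.07, limma adjusted p = 0.373), to PSMD11, with -0.22 (SE 0.07, limma adjusted p = 0.377), and to a dim probe of PSMD5, with 0.34 (SE 0.09, limma adjusted p = 0.371). The fit had 1 residual degree of freedom. After normexp background correction and loess it called 4 member probes, of PSMA2, PSMD11, PSME4 and PSMG2, and 1708 probes in all.

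More members passed 1.5-fold between the lines than between the siRNAs. In the control samples, after scaling the signals of both arrays to each other, 5 of 46 members were at least 1.5-fold higher in MKN45, beside 24.1% of all 13637 genes above background in both, and 12 of 46 were at least 1.5-fold lower, beside 31.7%. All genes had a median difference, MKN45 minus MKN74, of -0.11 on the log2 scale, and the constitutive genes one of -0.25. Relative to all genes the constitutive median was at -0.14. Of the 2728 brightest genes by control signal, 578 were at least 1.5-fold higher in MKN45 and 688 at least 1.5-fold lower. Their median difference was -0.007 under the same scaling. The constitutive median of -0.25 thus lay further below that of these bright genes than below that of all genes. With the arrays centred on their 75th percentile or their median the median of all genes was 0.16 or 0.10 in place of -0.11, and the constitutive median relative to it was -0.26 under both. The share of higher calls among all calls was 43.2%, and 56.9% and 53.7% under those scalings. There was 1 culture a line, so none of these differences has a test.

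**Figure D3:**
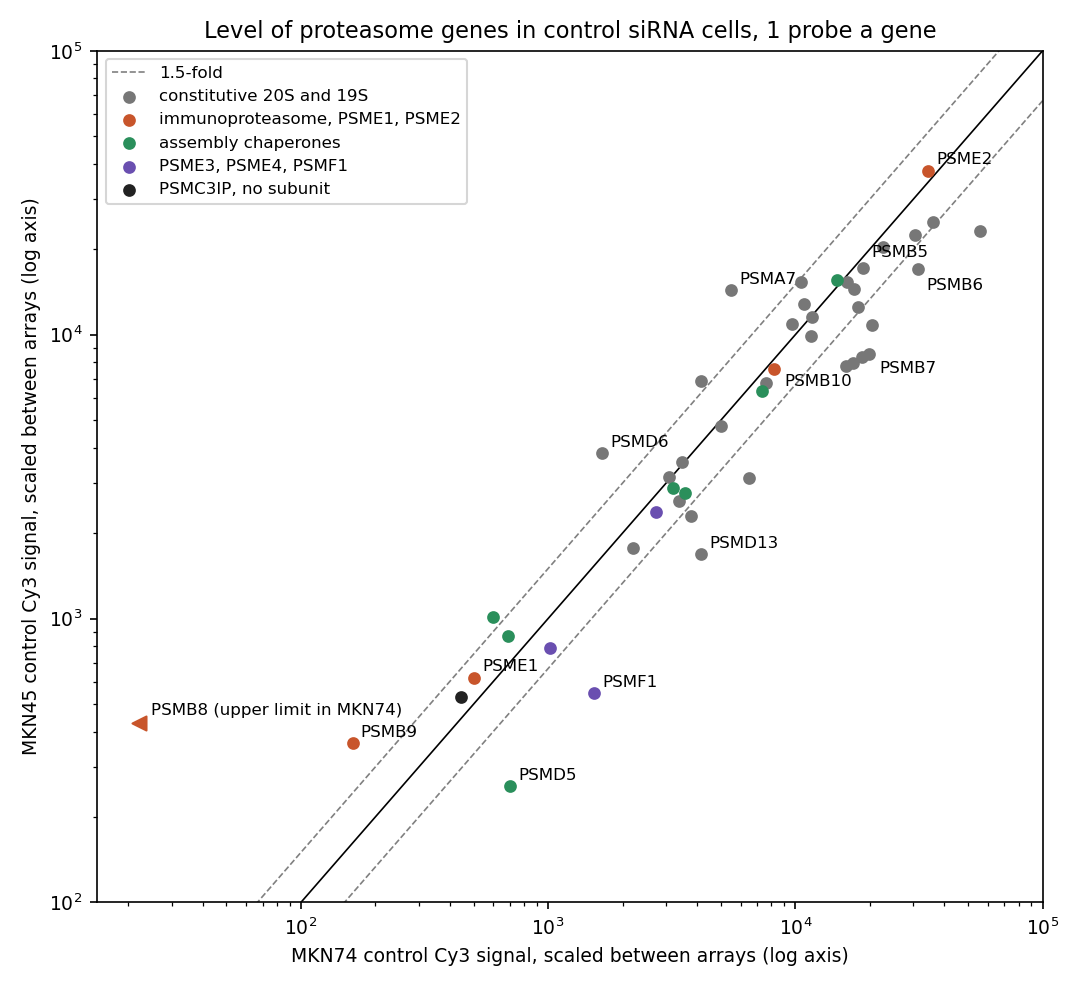
Control (Cy3) signal of each proteasome gene in MKN74 and MKN45, scaled between arrays, on log axes, with 1 probe a gene; the solid line is equality and dashed lines are 1.5-fold. PSMB8 is drawn at its upper limit in MKN74, far to the left of the other genes, and PSMB9 lies above the upper dashed line.

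PSMB8 showed the largest difference between the lines of any member with a value or a bound. In control cells it was at least 19.4-fold higher in MKN45 than in MKN74, and with SET7/9 siRNA at least 36.4-fold higher. These bounds set the dim signal to the lowest one that was well above background in that channel of the MKN74 array, and they rest on 1 spot per array. PSMB9 was 2.25-fold higher in control MKN45 (log2 difference 1.17; 1.39 with SET7/9 siRNA), and 0.97 to 1.40 under the other scalings. The log2 differences of PSME1, PSME2 and PSMB10 were 0.30, 0.14 and -0.11, all within 1.5-fold. The 4 genes with a value had a median of 0.22, which is 0.33 above that of all genes and 0.30 above it under the 75th percentile or median scaling.

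The constitutive counterparts were lower in MKN45 or did not differ by 1.5-fold. Their log2 differences were -0.87 for PSMB6, -1.22 for PSMB7 and -0.12 for PSMB5. Under the 75th percentile and median scalings PSMB6 was at -0.582 and -0.64, the first just short of the 1.5-fold cutoff of 0.585. PSMB7 was at -1.09 and -1.15 under these scalings, and PSMB5 turned to 0.08 and 0.02. All 7 genes of the constitutive beta ring were lower in MKN45, and 5 or 6 of 7 under those scalings. PSMB1, a beta subunit with no catalytic site, was at 55756 in control MKN74 and 23097 in control MKN45. GAPDH, which is outside the proteasome, had a log2 difference of -1.13 in the same comparison.

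Subunits of the same complex differed between the lines in opposite directions. PSMA7, of the alpha ring, was at 5508 in control MKN74 and 14322 in control MKN45, a log2 difference of 1.38, and PSMD6 at 1651 and 3831, a difference of 1.21. With PSMB9 these were the 3 largest differences upward among members measured in both. The 3 largest downward included 1 subunit, PSMD13, with 4161 and 1686 (-1.30). The others were the inhibitor PSMF1, with 1536 and 545 (-1.49), and the assembly chaperone PSMD5, with 700.1 and 257 (-1.45). The SET7/9 siRNA samples of the same arrays gave 1.42, 1.11, -1.62, -1.23 and -1.51 for PSMA7, PSMD6, PSMF1, PSMD5 and PSMD13, in the same order of lines. They share the array with the controls and are no independent check.

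Of the list of interferon and antigen presentation genes, TAP1, TAP2, TAPBP, IRF1, NLRC5 and ERAP1 are reported here, and as they are not the whole list no count by sign and no median is given. After SET7/9 knockdown 0 of these 6 passed 1.5-fold in either line. Of all genes, 1.73% were lower and 3.82% higher by that cutoff in MKN74, and 1.91% and 4.67% in MKN45. TAP1, a subunit of the peptide transporter, was at 0.45 in MKN74 (error 0.21), past the smaller cutoff, and at 0.21 in MKN45 (error 0.20). After normexp and loess it was at 0.32 and 0.09. TAPBP, which couples the transporter to MHC class I molecules, was at 0.27 and 0.35, above its error of 0.21 in both lines and past the smaller cutoff in MKN45. The remaining genes were below their errors in both lines. TAP2, the partner of TAP1, was at 0.08 and 0.01, ERAP1, which trims peptides, at 0.15 and 0.15, and IRF1, a transcription factor induced by interferon, at 0.03 and 0.14. NLRC5, an activator of MHC class I genes, was at 0.31 in MKN74, where its control signal was not well above background (error 0.40), and at 0.17 in MKN45 (error 0.25). In control cells TAP1 was 2.79 higher (log2) in MKN45, at 2890 against 418 in MKN74, in the same direction as its neighbour PSMB9. The difference of IRF1 was -1.06, and -0.63 to -0.69 under the 75th percentile, median and normexp scalings. Its sign was opposite to that of PSMB8, PSMB9 and TAP1. It rests on 1 dim probe, at 183 in control MKN74 and 87.9 in control MKN45, and the cause was not tested. Over these 6 genes and the lists of assembly partners, factors that control proteasome genes, and ubiquitin and shuttle factors, 0 of 26 kept genes in MKN74 and 0 of 25 in MKN45 passed 1.5-fold, beside the same shares of all genes. NFE2L1, the factor that raises proteasome genes when the proteasome is inhibited, was at 0.17 and 0.04.

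Promoter windows of 250 bases before and 50 after a start in RefSeq (GRCh38.p14) were at hand for 43 of the 49 symbols. PSMA7, PSMB1, PSMB6, PSMB7, PSMD4 and PSMG3 had no entry. They were searched on both strands for the core of an interferon-stimulated response element, GAAANNGAA, since interferon is the known inducer of the immunoproteasome. It was found for 4 of 5 genes of the immunoproteasome group (PSMB8, PSMB10, PSME1 and PSME2), for 3 of 26 constitutive genes (PSMA4, PSMB4 and PSMC2) and for 9.86% of all 27305 genes, or 8.11% of 35116 windows. PSMB9 had no match in its window, but its start lies 488 bases from that of TAP1 on the opposite strand, and the TAP1 window held 2 matches that overlap each other. A CCAAT box was found for 15 of 26 constitutive genes, 1 of 5 of the immunoproteasome group and 39.7% of all. The core of the antioxidant response element, TGACNNNGC, was found for 7 of 26, 3 of 5 and 16.1%. The NF-kB site GGGANTTCC was found for 1 of 26, 0 of 5 and 2.23%. A match is a description of the letters, and no binding was measured.

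The 250 bases before the start of PSMB10, PSME2, PSMB9 and TAP1 are shown with GAAANNGAA or its reverse complement in capitals, to set the genes with the element beside PSMB9, which lacks it. Positions are on GRCh38.p14. They are chr16:67936851-67937100 (minus strand) for PSMB10, chr14:24146611-24146860 (minus) for PSME2, chr6:32853942-32854191 (plus) for PSMB9 and chr6:32853705-32853954 (minus) for the first TAP1 start. For PSMB8 at its second start and for PSME1 the match touches or follows the start, and only 26 bases are shown, chr6:32844034-32844059 (minus) and chr14:24136191-24136216 (plus).
PSMB10: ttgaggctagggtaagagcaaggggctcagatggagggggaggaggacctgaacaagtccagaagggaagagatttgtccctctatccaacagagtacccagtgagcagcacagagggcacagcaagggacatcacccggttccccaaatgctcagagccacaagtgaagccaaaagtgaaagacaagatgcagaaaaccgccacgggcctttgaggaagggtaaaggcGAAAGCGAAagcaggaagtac
PSME2: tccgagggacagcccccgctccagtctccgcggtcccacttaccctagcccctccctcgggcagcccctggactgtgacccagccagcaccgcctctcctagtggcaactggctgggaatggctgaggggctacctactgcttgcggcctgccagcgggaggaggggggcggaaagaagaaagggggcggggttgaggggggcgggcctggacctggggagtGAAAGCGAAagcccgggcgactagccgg
PSMB9: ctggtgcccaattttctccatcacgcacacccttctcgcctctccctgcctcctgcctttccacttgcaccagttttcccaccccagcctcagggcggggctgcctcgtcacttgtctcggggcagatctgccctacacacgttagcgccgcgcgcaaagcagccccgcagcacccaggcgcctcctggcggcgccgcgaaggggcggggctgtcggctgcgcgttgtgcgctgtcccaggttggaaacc
TAP1: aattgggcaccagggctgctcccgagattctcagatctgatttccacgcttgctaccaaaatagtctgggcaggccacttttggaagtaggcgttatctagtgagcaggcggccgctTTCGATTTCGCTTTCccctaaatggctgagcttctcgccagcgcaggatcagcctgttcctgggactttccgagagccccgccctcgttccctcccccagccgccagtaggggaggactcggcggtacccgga
PSMB8: tctgtggctTTCGCTTTCacttcctc
PSME1: cctaccgctTTCGCTTTCccttcgcg

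All 3 matches printed for PSMB10, PSME2 and PSMB8 read GAAAGCGAA on 1 strand or the other, as does that of PSME1 and 1 of the TAP1 pair. In MKN45 the genes of the immunoproteasome group that carry it did not share a direction after knockdown. There PSMB8 and PSME2 were above 0 and PSMB10 and PSME1 below 0, each within its error. In MKN74 PSMB10, PSME1 and PSME2 were all below 0, each within its error, and PSMB8 had no value. TAP1, outside the group, was at 0.45 in MKN74 and 0.21 in MKN45, past its error in both.

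Several members had more than 1 probe, and these gave a measure of how far a ratio depends on the probe. There were 14 such genes, of which 11 had 2 or more kept probes in MKN74 and 12 in MKN45. For the 10 genes in each line with 2 or more probes measured in both channels, the median gap between the highest and the lowest probe was 0.19 in MKN74 and 0.11 in MKN45, beside 0.16 and 0.17 for all genes of that kind. The largest was 0.40 and 0.37, and 0 of 10 reached 1.5-fold in either line, beside 3.67% and 5.24% of all such genes. The pooled SD of repeated spots of 1 probe was 0.09 and 0.10.

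PSMD9 was the only member whose kept probes differed by more than 0.58. In MKN45 its brightest probe was at -0.05, and its second probe, at chr12:122355238-122355297, at 1.46 with an error of 0.97. At that second probe the control signal of 3.90 was not well above background, no bound above 1-fold could be given. In MKN74 both its probes were measured in both channels, at -0.06 and 0.10. PSMD5 and PSME4 had the next largest gaps, both in MKN74. The 3 kept PSMD5 probes lay at -0.00, 0.26 and 0.43, the last not above background in Cy3, and in MKN45 at 0.22, 0.08 and 0.24. The PSME4 probes lay at -0.11 and 0.29 in MKN74, a gap of 0.40 with an error of 0.29, and at 0.16 and 0.14 in MKN45. PSMD10 likewise had probes at 0.06, -0.14 and -0.30 in MKN74 and at 0.07, 0.12 and 0.17 in MKN45, and PSMA1 had a dim second probe at -0.48 in MKN45 while its bright one was at -0.11.

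**Figure D4:**
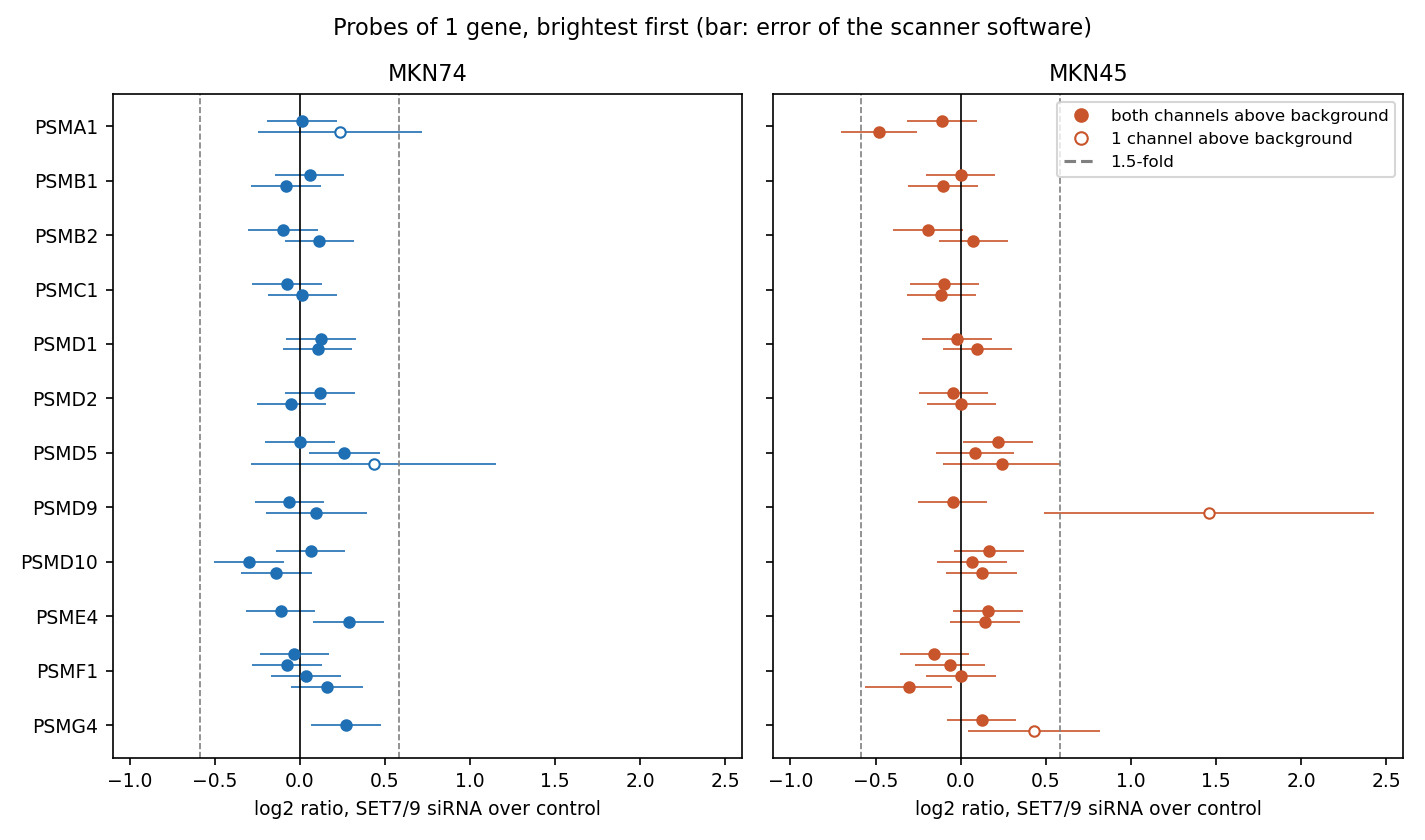
Log2 ratio of SET7/9 siRNA over control for each kept probe of the members with several probes, in MKN74 (left) and MKN45 (right). The probe with the highest control signal in that line is on top. Bars are the error of the scanner software, open points have 1 channel above background and dashed lines mark 1.5-fold. The 1 point past 1.5-fold is the dim second probe of PSMD9 in MKN45.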

How the data were processed

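RNA of MKN74 and MKN45 cells was measured on 1 two-colour array each. The authors deposited Agilent Feature Extraction 10.7.3.1 output, which holds the intensity of each spot and channel, a log10 ratio of Cy5 over Cy3 after background subtraction and LOWESS dye normalization, its error, and an error-model p-value, which was used in 1 alternative cutoff (1.5-fold with that p under 0.01). A table of log2 ratios was deposited too. Ratios were converted to log2. Control spots and outlier spots (549 and 534 of 43118 gene spots on the arrays) were removed, and repeated spots were averaged. A probe was kept where, in 1 channel or both, at least 50% of its spots were well above background, and a gene took its brightest kept probe.

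Levels of the lines were compared after Aquantile scaling of both arrays. A bound for a signal not well above background used the lowest signal well above it in that channel and array. limma 3.58.1 in R 4.3.3 fitted both arrays against 0 with Benjamini-Hochberg adjustment at 0.05 over all kept probes. The fit was also run on simulated data with the same SD for all probes, which does not measure its power on these arrays. Otherwise Python 3.11.15 was used. The cutoff was 1.5-fold, which is 0.58 on the log2 scale. Names are those of the array design: of the 70 member probes 64 had a RefSeq accession, all 64 were in the GRCh38.p14 gene table, and all 64 had the same symbol there. The genes given in full were PSMB5 to PSMB10, PSME1 to PSME4, PSMF1, PSMG1 to PSMG4, PSMC3IP, the 3 highest and 3 lowest constitutive genes, the 3 largest level differences in each direction, the genes with the largest gaps between probes, SETD7, GAPDH, TAP1, IRF1 and NFE2L1. PSMA1, PSMB1, PSMD7, PSMD10, TAP2, TAPBP, NLRC5 and ERAP1 were added after their values were seen. Of the plan, 1 gene of the interferon and antigen presentation list and 1 promoter motif are not reported here. Members and lists were chosen with earlier results of these data known. Alternatives covered background correction, dye normalization, filters, source, cutoff and scaling. There were 0 columns of other samples.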

Additional observations from a re-analysis of the deposited data

Results flagged for a closer look

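Results that lay on opposite sides of 0 in the lines, each past the pooled SD of repeated spots of its array (0.09 in MKN74 and 0.10 in MKN45), were picked out. There was 1 array per line, so these differences were not tested. PSME4 was at -0.11 in MKN74 and 0.16 in MKN45 at its brightest probe. A dim PSMD10 probe was at -0.14 and 0.12, and another probe at -0.30 and 0.17. This other probe was dimmer than the one used for the gene in MKN74 (control signal 454 beside 767). In MKN45 it was the brighter of these (1208 beside 786). The dimmest PSMF1 probe was at 0.16 in MKN74 and -0.30 in MKN45. The other kept probes of the same genes did not all show the opposition. PSME4 had a second probe at 0.29 and 0.14. The PSMD10 probe with the highest mean signal over the RNA samples was at 0.06 and 0.07. The error of a difference between the lines at the brightest probe was 0.29 for PSME4, as large as the gap itself.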

How the results depend on the processing

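The 15 results on groups and counts were recomputed under other settings, which gave 108 values in all. Of these, 98 differed from the main value by less than the SD of repeated spots or, for counts, by at most 1.5 times. The other 10 moved further. Some of the 98 could not move, because the setting left that result untouched. Turned signs were not scored for medians and counts. The constitutive median in MKN74 and the immunoproteasome median in MKN45 each changed sign in a setting given next. With median centring and no intensity fit, the constitutive median in MKN74 was 0.071 in place of -0.05. Without PSMB8, a setting added after seeing the data, the immunoproteasome median in MKN45 was -0.012 in place of 0.10 and its distance to the constitutive median 0.035 in place of 0.14. With no filter on dim probes, 1 member was past the cutoff lower in MKN45 (PSMA8, -1.69) and 1 higher (PSMB11, 0.68), neither above background. With the mean over kept probes, 1 was higher in MKN45 (PSMD9, 0.71). After normexp and loess, limma called 4 of 61 member probes in place of 0, beside 1708 of 19595 probes in all in place of 0; the cause was not tested. For the level difference between the lines, 75th percentile scaling gave -0.10 for the constitutive genes in place of -0.25 and 0.46 for PSMB9, PSMB10, PSME1 and PSME2 in place of 0.22, and median scaling gave 0.40 for the latter.

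Single member ratios changed sign in 17 of 46 genes in MKN74 and 7 of 47 in MKN45 under median centring, and in 6 and 2 after normexp and loess. Leaving out an array leaves no residual degrees of freedom, so no such value was computed. No paired analysis was possible because there is 1 array a line, so the lines share fewer than 2 replicate numbers. Each ratio is already a comparison of both siRNAs within an array. The number of arrays limits every value, the dye normalization the signs in MKN74, and signal over background PSMB8 in MKN74, PSMA8 and PSMB11.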

Other observations

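Among the ubiquitin and shuttle factors, UBQLN1, which brings ubiquitinated proteins to the proteasome, had a dimmer probe at -0.55 in MKN74 and -0.49 in MKN45 (error 0.21 in both), while its brightest probe was at -0.05 and 0.16. UBQLN2, a relative, was at 0.19 and 0.23. VCP, the ATPase that extracts ubiquitinated proteins, was at -0.18 and -0.13 and differed by -1.96 (log2) between control MKN45 and control MKN74, a larger difference between the lines than that of any proteasome gene measured in both. ERAP1, which trims peptides for MHC class I, was 1.43 higher in control MKN45, the side on which PSMB8, PSMB9 and TAP1 were also higher. POMP, which matures the 20S core, was at -0.05 and -0.24 after knockdown. These genes were chosen after their values were seen.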
